A study of Mus musculus with 6 samples.

Results

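The genes described are 10 that are known from endothelium, most of them for surface or secreted proteins, measured in cultured mouse lymphatic endothelial cells (LEC). They were taken by name: Clec14a, Cd93, Egfl7, Ecscr, Mmrn2, Rasip1, Myct1, Emcn, Plvap and Esm1. All 10 are on the array, among 18193 genes with a single gene name, and all 10 lay above the filter on low values that left 12954 genes for the test. Each gene was read from its brightest probe set by the mean over the 6 arrays.

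Tumour LEC were isolated from fibrosarcomas that T241/VEGF-C/GFP cells formed in C57BL/6 mice. T241 is a mouse fibrosarcoma line, and its name here adds VEGF-C, which drives lymphatic growth, and the fluorescent marker GFP. The normal cells were dermal LEC out of the tail skin of C57BL/6 females aged 8 weeks. No age or sex is given for the tumour-bearing mice. There were 3 Affymetrix arrays per group, each made from 50 ng of total RNA. Both groups were expanded in endothelial medium on gelatin and selected with beads against LYVE-1, which binds hyaluronan on lymphatic endothelium, so both are cultured cells rather than vessels in place. For the tumour cells the text of the later isolation steps is garbled, and the titles of these arrays name tumour cells where the source descriptions name tumour LEC, which is followed here. Nothing says that the replicates were separate animals or cultures, so p-values measure the spread between these arrays, which may be technical.

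Most of these genes are switched on in nearly all endothelium and little elsewhere, and several products meet at the cell surface. CLEC14A and CD93 are transmembrane C-type lectins of one small group, and both bind multimerin 2 (MMRN2), a glycoprotein that endothelial cells lay down in their matrix. Plasmalemma vesicle-associated protein (PLVAP) forms the diaphragms of caveolae and fenestrae, and endomucin (EMCN) is a sialic-acid-rich mucin of the luminal surface. RASIP1 is the exception to the surface theme, an intracellular effector of RAP1 needed for vessel lumens.

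The test between the groups (limma, Benjamini-Hochberg adjusted p under 0.05) was passed by 0 of the 10 genes, against 0.216% of all genes tested in either direction and 0.0463% in the higher one. Without adjustment 1 of the 10, Myct1, had a p under 0.05 in the higher direction, against 6.66% of all genes. The mean was higher in tumour LEC for 8 of the 10 genes and lower for Rasip1 and Esm1, and 53.1% of all genes had a higher mean there. Means differed at least 2-fold for 4 genes, Myct1, Mmrn2, Emcn and Plvap, all higher in tumour LEC, against 3.84% of all genes. The 3 tumour arrays lay wholly above the 3 normal arrays for Myct1 and Mmrn2. That is 2 of 10 genes against 20.9% of all genes, and so close to that share. The 20.9% also counts genes at background on every array, as 11105 of the 12954 tested were above it on at least 1. The median log2 difference of the 10 genes was 0.85, against 0.03 for all genes tested. It was 0.43 without tumour replicate 1, the array that held the highest value of 6 of the 10 genes, and 1.44 without tumour replicate 3, the array on which 5 of them were lowest among the tumour arrays. An exact two-sided permutation test was left out, because 3 arrays against 3 limit its p to 0.1 or more.

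**Figure D1:**
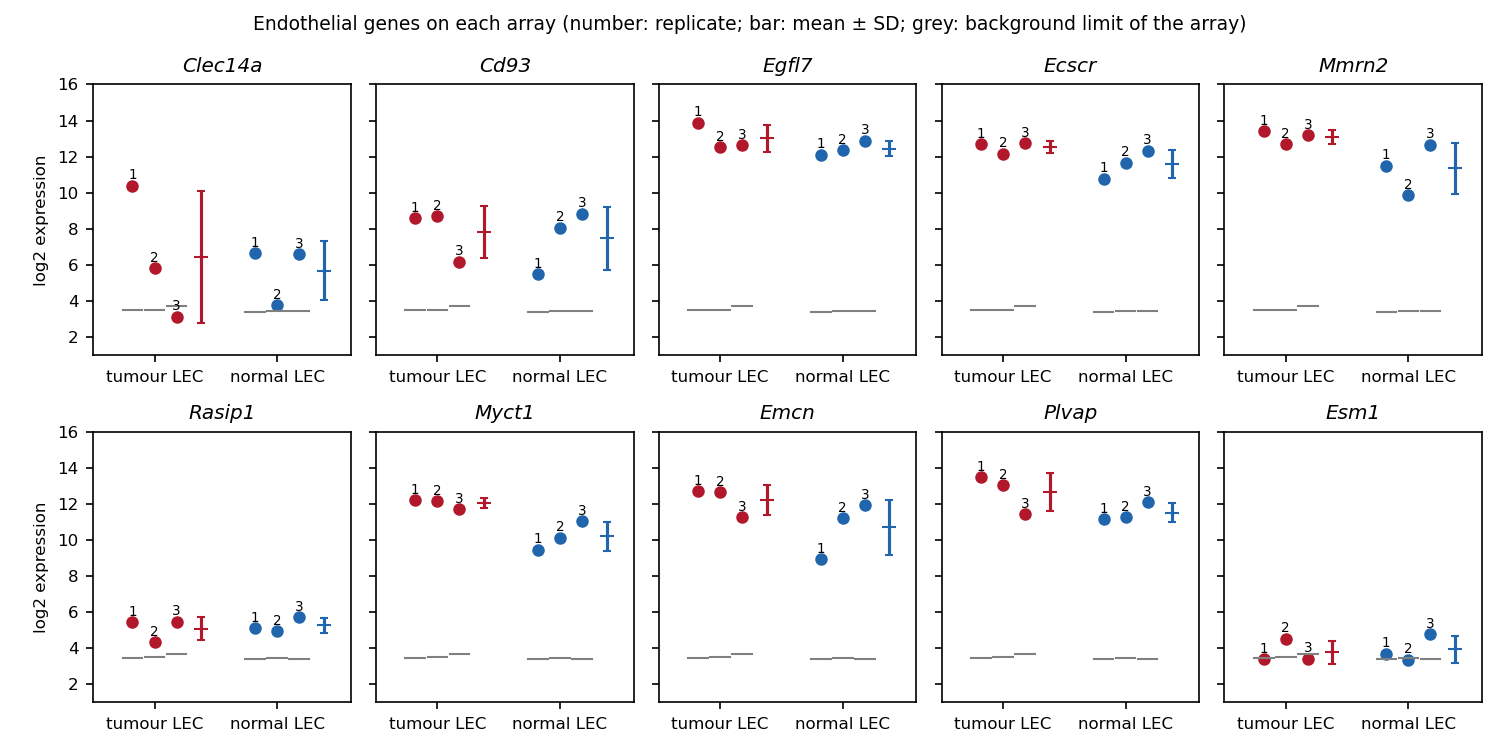
Log2 expression of each of the 10 genes on the 3 tumour LEC and 3 normal LEC arrays, with replicate numbers beside the points, bars for the mean ± SD (n = 3) and grey dashes for the background limit of each array. Myct1 and Mmrn2 separate the groups, Clec14a runs from 10.40 to 3.13 within the tumour arrays, and Esm1 is at background on 3 of the 6 arrays.

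Among the arrays, the background limit, taken as the highest of 27 control probe sets for absent bacterial RNA, lay between 3.40 and 3.71 log2 units and was highest in tumour replicate 3. Lyve1, whose product was the target of the selection beads, read 14.77, 14.11 and 14.91 in tumour LEC and 14.02, 13.65 and 14.32 in normal LEC. Prox1, the regulator of lymphatic fate, read 7.77 to 8.92 and 7.73 to 8.30. Of the other lymphatic markers, Pdpn (means of 11.66 and 11.57) and Flt4 (12.32 and 12.29) were bright in both groups. Itga9 (4.54 and 4.35) and Stab2 (4.95 and 4.19) were dim, and Mmrn1 was at background on all 6 arrays. Fibroblast genes differed far more. The log2 of the summed signal of 13 tested markers was 11.00 to 12.70 on tumour arrays. On normal arrays it was 14.69 to 16.15, highest in normal replicate 1. Most of the tumour sums came from S100a4, also a gene of other motile cells, which alone read 12.65, 11.60 and 10.85. For leukocyte markers (10 tested) the log2 summed signal was 10.84 to 12.53 on tumour arrays and 10.87 to 12.17 on normal arrays. It was highest in tumour replicate 1. Ptprc, which encodes the leukocyte antigen CD45, read 5.92 on that array and at most 3.36 on the others. On tumour replicate 3 most of the sum came from Cd14, at 12.00. Cd68, of the same list, read 10.88, 7.90 and 4.82 in tumour LEC and 8.56, 8.45 and 9.57 in normal LEC. Lyz2 read 10.06, 7.54 and 5.48 in tumour LEC and 8.24, 7.94 and 10.01 in normal LEC. Of the 10 markers 7 had a higher and 3, with Cd68 and Lyz2 among them, a lower mean in tumour LEC. In RNA of a whole culture, fewer endothelial cells and less RNA per endothelial cell cannot be told apart.

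The lectins and their matrix partner came first. Clec14a read 10.40, 5.82 and 3.13 in tumour LEC replicates 1 to 3 and 6.66, 3.79 and 6.60 in normal LEC. The groups overlapped completely: the tumour arrays held both the highest and the lowest value, and tumour replicate 3 was at background. The difference was 0.76 (SE 1.96, 95% interval -4.13 to 5.65, adjusted p = 0.842), and it was -1.21 without tumour replicate 1 and -0.18 without normal replicate 2. A second Clec14a probe set gave the same order of tumour arrays, at 9.18, 5.75 and 4.01.

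Cd93, whose product also occurs on myeloid cells, read 8.59, 8.72 and 6.18 in tumour LEC and 5.49, 8.07 and 8.84 in normal LEC. One array of each group stood low, tumour replicate 3 and normal replicate 1, and the others lay between 8.07 and 8.84. The difference was 0.36 (SE 1.11, 95% interval -2.39 to 3.11, adjusted p = 0.868) and took the other sign without tumour replicate 1 (-0.02), tumour replicate 2 (-0.08) or normal replicate 1 (-0.63). Among leukocyte markers, Csf1r, the macrophage growth factor receptor, read 8.58, 3.77 and 3.88 in tumour LEC and 7.20, 5.25 and 6.82 in normal LEC. The part of leukocyte RNA in the Cd93 and Clec14a values was not tested.

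Mmrn2 read 13.41, 12.68 and 13.19 in tumour LEC and 11.50, 9.88 and 12.66 in normal LEC. The 3 tumour arrays were close together and all above the normal arrays, though tumour replicate 2 exceeded normal replicate 3 by very little, and the normal arrays spread widely with replicate 2 lowest. The difference was 1.75 or 3.35-fold (SE 0.71, 95% interval -0.03 to 3.52, adjusted p = 0.328). Without normal replicate 2 it was 1.01, and without normal replicate 3 it was 2.40. The 4 probe sets of Mmrn2 differed by 1.75, 2.05, 1.50 and 1.88, all in the same direction, and normal replicate 2 was the lowest array on each. The groups were apart on 2 of the 4, and on the others tumour replicate 2 lay below normal replicate 3.

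Relatives and ligands outside the 10 genes went different ways. Thbd, the thrombomodulin gene of the same lectin group, read 9.10, 8.13 and 9.19 in tumour LEC and 8.17, 8.44 and 9.19 in normal LEC, a difference of 0.21 (SE 0.40). Cd248, the group's member in fibroblasts and pericytes, read 4.16, 5.03 and 2.59 in tumour LEC and 10.07, 6.56 and 6.70 in normal LEC, with its highest value on normal replicate 1 (difference -3.85, SE 1.15, adjusted p = 0.228) and tumour replicate 3 at background. Fibroblast markers ran with it: Col1a2, a chain of type I collagen, read 3.61, 3.16 and 2.76 in tumour LEC and 14.29, 11.69 and 11.70 in normal LEC, and fell (adjusted p = 0.0276). It was above background on 1 of the 3 tumour arrays, so the fitted difference of -9.38 (SE 0.77) has no firm size. Igfbp7, which encodes a secreted ligand of CD93, read 13.96, 13.58 and 13.28 in tumour LEC and 12.74, 11.97 and 12.44 in normal LEC, without overlap (difference 1.22, SE 0.27, adjusted p = 0.144). Mmrn1, the multimerin often used as a lymphatic marker, was at background on all 6 arrays. Of 12 partners and relatives, 0 passed the test. Without adjustment 4 higher (Igfbp7, Heg1, Arhgap29 and Rap1a) and 1 lower (Cd248) had a p under 0.05. Over all 12954 genes tested these counts were 863 and 1144. The median difference of the 12 was 0.29.

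The secreted proteins followed. Egfl7, an EGF-like protein that endothelial cells secrete, read 13.89, 12.53 and 12.65 in tumour LEC and 12.11, 12.35 and 12.89 in normal LEC. Tumour replicate 1 stood above the rest, and the other tumour arrays lay within the range of the normal ones. The difference was 0.57 (SE 0.42, 95% interval -0.49 to 1.63, adjusted p = 0.533), and 0.14 without tumour replicate 1. Its 4 probe sets differed by 0.57, 0.48, 0.46 and 0.47, a spread smaller than their SE of 0.36 to 0.44.

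Egfl7 also carries miR-126, the best known microRNA of endothelium, in one of its introns in mouse. The RefSeq table of GRCm38.p6 places the mature form at chr2:26591402-26591423 on the plus strand, inside the Egfl7 gene at chr2:26581083-26592682. Its sequence is shown because every Egfl7 value above reads the host transcript, not the microRNA, which these arrays were not used to measure. Capitals mark the seed, bases 2 to 8.
mmu-miR-126a-3p: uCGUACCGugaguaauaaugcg

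Esm1 encodes endocan, a secreted proteoglycan that VEGF induces in sprouting tip cells of blood vessels. It read 3.41, 4.53 and 3.42 in tumour LEC and 3.70, 3.36 and 4.79 in normal LEC. Tumour replicates 1 and 3 and normal replicate 2 were at background, and the highest value was in normal replicate 3. The difference of -0.16 (SE 0.49, 95% interval -1.38 to 1.05, adjusted p = 0.864) is therefore of a gene at the edge of detection, and little can be read from it.

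Other genes known from tip cells were measured beside it. Cxcr4 was at background on all 6 arrays and was not tested, and Dll4, a Notch ligand, was above background on tumour replicate 3 alone. Of 11 tested, 0 passed the test, and 4 higher and 1 lower had an unadjusted p under 0.05. Among all 12954 genes tested, 863 were higher and 1144 lower by that p. The median difference was 0.79, against 0.03 for all genes. Angpt2, which encodes angiopoietin 2, read 14.11, 13.67 and 14.45 in tumour LEC and 12.09, 12.58 and 13.04 in normal LEC (difference 1.51, SE 0.31, adjusted p = 0.132). Unc5b, a netrin receptor, differed by 1.49 (SE 0.24, adjusted p = 0.0863). Pdgfb, the ligand that draws in pericytes, read 8.62, 8.00 and 8.66 in tumour LEC and 3.42, 5.21 and 6.16 in normal LEC (difference 3.50, SE 0.71, adjusted p = 0.125).

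Myct1, which encodes a transmembrane protein first described as a MYC target, had the smallest p of the 10 genes. It read 12.21, 12.17 and 11.71 in tumour LEC and 9.46, 10.13 and 11.06 in normal LEC. The tumour arrays lay within 0.49 of each other and above all normal arrays, which spread over 1.59. The difference was 1.81 or 3.52-fold (SE 0.42, 95% interval 0.76 to 2.86, adjusted p = 0.158), ranked 488th of 12954 genes by p. It lay between 1.44 and 2.23 with any 1 array left out. All 4 Myct1 probe sets separated the groups, with differences of 1.81, 1.48, 1.48 and 0.80, the last from a probe set at background on all 3 normal arrays.

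Ecscr, a cell surface receptor that regulates endothelial migration, read 12.69, 12.17 and 12.74 in tumour LEC and 10.79, 11.66 and 12.33 in normal LEC. Normal replicate 3 lay above tumour replicate 2, and every other normal array lay below every tumour array. The difference was 0.94 (SE 0.42, 95% interval -0.10 to 1.98, adjusted p = 0.355), and without normal replicate 1 it was 0.54.

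The mucin and the diaphragm protein of the vessel surface both read lowest, within the tumour arrays, on replicate 3. Emcn read 12.70, 12.65 and 11.25 in tumour LEC and 8.95, 11.21 and 11.92 in normal LEC. Normal replicate 1 stood far below the rest, and tumour replicate 3 lay between normal replicates 2 and 3. The difference was 1.51 or 2.84-fold (SE 0.86, 95% interval -0.63 to 3.65, adjusted p = 0.447), and 0.64 without normal replicate 1. On normal replicate 1 fibroblast markers were also highest, with a median deviation from the gene means of 3.87 over 13 genes, against 0.78 and 1.02 on the other normal arrays. The part of this in the low endothelial values there was not tested.

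Plvap read 13.49, 13.04 and 11.45 in tumour LEC and 11.17, 11.27 and 12.10 in normal LEC. Tumour replicates 1 and 2 exceeded all normal arrays, and tumour replicate 3 lay among them. The difference was 1.15 or 2.21-fold (SE 0.59, 95% interval -0.31 to 2.60, adjusted p = 0.406). It was 1.75 without tumour replicate 3 and 0.73 without tumour replicate 1.

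Genes that work with these proteins were measured too. A list for caveolae and their diaphragms held 7 tested genes, Nrp1 among them, and 0 passed the test. Without adjustment 0 higher and 2 lower, Cavin3 and Nrp1, had a p under 0.05, against 863 higher and 1144 lower of all 12954 genes. The median difference was -0.20. Cav1, the main caveolin of endothelium, read 14.09, 14.37 and 14.17 in tumour LEC and 14.02, 14.16 and 13.95 in normal LEC (difference 0.16, SE 0.13). Cavin3 differed by -1.06 (SE 0.34) and Nrp1, a co-receptor for VEGF and semaphorins, by -3.59 (SE 1.24). The mean of Nrp1 was 5.84 ± 2.45 over the 3 tumour arrays and 9.43 ± 0.68 over the 3 normal ones (± SD), with tumour replicate 3 lowest and at background. Of 5 tested sialomucin genes, 0 passed the test and 1, Cd34, had an unadjusted p under 0.05 in the higher direction, against 6.66% of all genes. Cd34 read 11.10, 10.47 and 10.09 in tumour LEC and 8.65, 9.34 and 9.91 in normal LEC (difference 1.25, SE 0.41), and Podxl, or podocalyxin, differed by 1.22 (SE 0.71). Cd164, the brightest of that list, differed by 0.15 (SE 0.13).

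Rasip1 read 5.44, 4.35 and 5.48 in tumour LEC and 5.11, 4.96 and 5.74 in normal LEC. The lowest and the highest array were tumour replicate 2 and normal replicate 3, and the remaining arrays were mixed. The difference was -0.18 (SE 0.38, 95% interval -1.13 to 0.77, adjusted p = 0.805). Around it in the RAP1 pathway, Arhgap29, whose product binds RASIP1, read 12.95, 12.44 and 12.69 in tumour LEC and 11.65, 11.96 and 12.43 in normal LEC (difference 0.68, SE 0.25, adjusted p = 0.288). Heg1, a transmembrane receptor that anchors KRIT1 and RASIP1 at junctions, read 4.36, 5.81 and 5.24 in tumour LEC and 3.44, 3.45 and 3.88 in normal LEC, near background there (difference 1.55, SE 0.39, adjusted p = 0.178). Rap1b differed by 0.27 (SE 0.17).

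**Figure D2:**
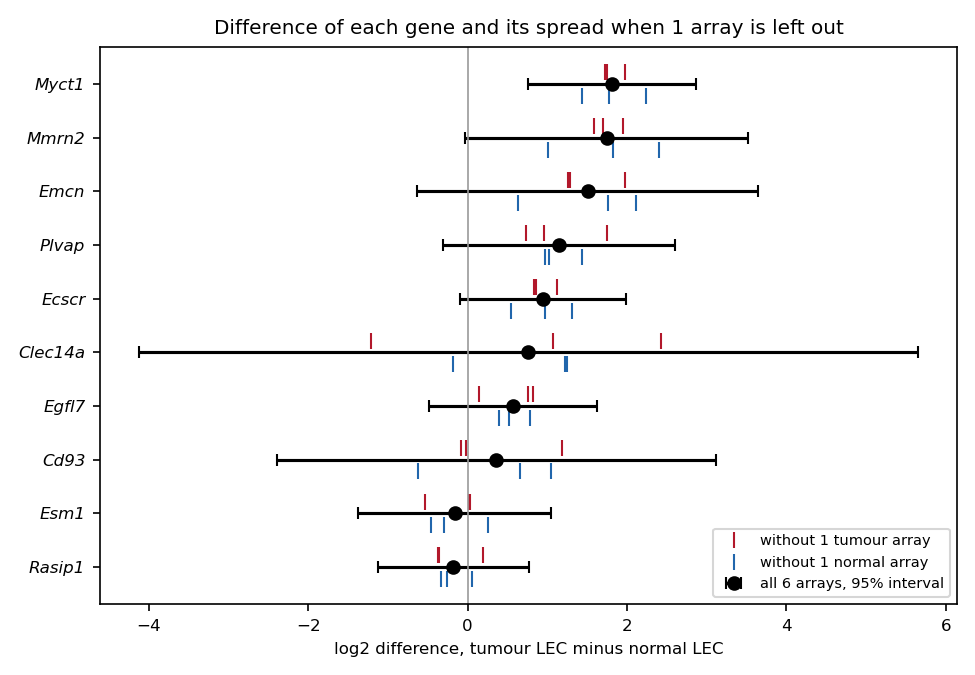
Log2 difference, tumour LEC minus normal LEC, of each of the 10 genes with its 95% interval (black), and the same difference with each tumour array (red) or normal array (blue) left out. The interval of Myct1, 0.76 to 2.86, is the only one that excludes 0 before adjustment over all genes, and the values of Clec14a, Cd93, Esm1 and Rasip1 lie on both sides of 0 when single arrays are left out.

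Where a gene had several probe sets, these mostly repeated its pattern. The 10 genes had 24 probe sets, of which 23 lay above the filter and 22 had a higher mean in tumour LEC. Probe sets of the same gene are not independent, so this is no stronger than the 8 of 10 genes with a higher mean. An adjusted p of 0.05 was passed by 0 of them, against 0.222% of all 27018 probe sets tested. Of the 5 Cd93 probe sets, 2 read at background on all arrays, with differences of 0.22 and 0.03, and the bright pair differed by 0.36 and 0.38. The remaining one, dim but above background on all 3 tumour arrays and 2 normal arrays, differed by 0.54 (SE 0.36). Ecscr, Rasip1, Emcn, Plvap and Esm1 rest on 1 probe set each.

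**Figure D3:**
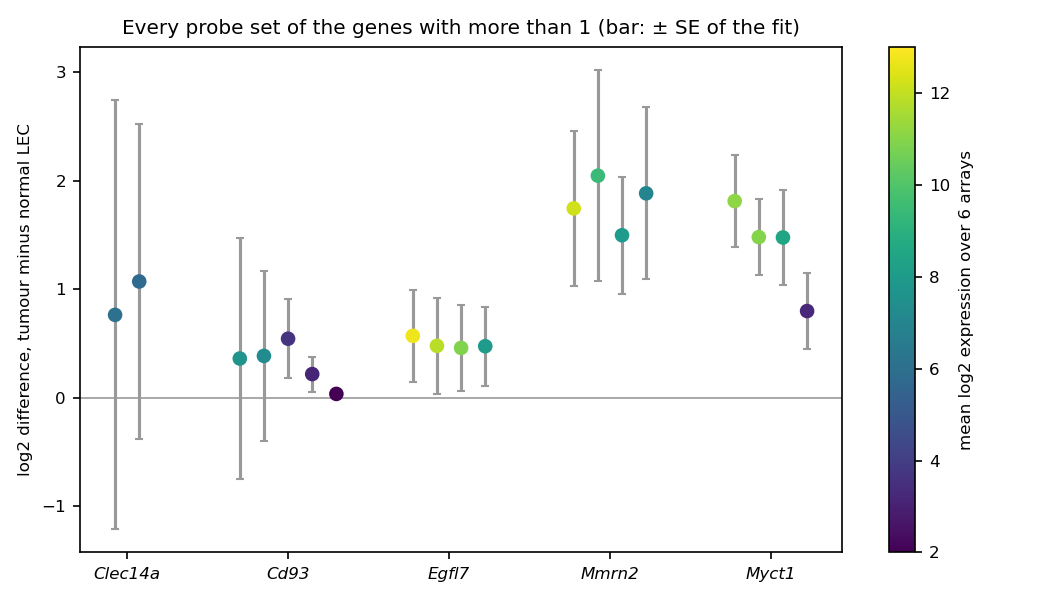
Log2 difference, tumour LEC minus normal LEC, of every probe set of the 5 genes with more than 1, ordered by brightness within each gene, with bars for ± SE and colour for the mean log2 expression over 6 arrays (the dimmest Cd93 probe set was below the filter and has no SE). The Mmrn2 probe sets lie between 1.50 and 2.05, the Egfl7 ones between 0.46 and 0.57, and the dimmest Myct1 probe set, at 0.80, lies below the other Myct1 ones.

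The 10 genes varied together only in part. Normal replicate 3 was the highest normal array for 9 of the 10, and normal replicate 1 was the lowest of all arrays for 6. In the mean of their centred values, normal replicate 3 (0.45) lay level with tumour replicate 2 (0.42) and above tumour replicate 3 (-0.32). Tumour replicate 1 was highest (1.18), and normal replicates 1 and 2 were lowest (-0.95 and -0.77). Clec14a weighed most in this mean on tumour replicates 1 and 3, with deviations of 4.33 and -2.94, the second from a value at background. By the median of the 10 genes, tumour replicate 3 was at -0.14 and normal replicate 3 at 0.46. As a description over 6 arrays that share 2 groups, Myct1 ran most closely with Ecscr (r = 0.89) and Emcn (r = 0.88), and Cd93 with Emcn (r = 0.86). With the group means subtracted, Cd93 and Emcn gave r = 0.98 and Myct1 and Emcn r = 0.93. Without that subtraction Rasip1 and Esm1 had r of at most 0.48 with any other of the 10 genes. With it, Rasip1 reached 0.68 with Mmrn2 and 0.67 with Ecscr, and Esm1 0.66 with Myct1. Leaving out 1 array moved the number of genes whose groups did not overlap. It was 6 of 10 without normal replicate 3, against 26.4% of all genes in the same comparison, 4 without tumour replicate 3 (24.8%) and 3 without tumour replicate 2 (25.2%). It stayed at 2 without tumour replicate 1 (27.8%), normal replicate 1 (25.3%) or normal replicate 2 (26.0%).

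The promoters of Myct1 and Emcn, whose means were higher in tumour LEC, are shown beside those of Rasip1 and Esm1, whose means were not. Promoter windows from RefSeq (GRCm38.p6) were kept for 6 of the 10 genes, 8 windows in all, which need not be every window RefSeq holds for the 10. The 250 bases before the start are printed on the strand of the gene. Capitals mark CAGGAA or its reverse complement TTCCTG, one form of the site of ETS factors, which control many endothelial genes. The windows are Myct1 at chr10:5593478-5593727, Emcn at chr3:137340828-137341077, Rasip1 at chr7:45627287-45627536 and Esm1 at chr13:113209409-113209658, all on the plus strand.
Myct1: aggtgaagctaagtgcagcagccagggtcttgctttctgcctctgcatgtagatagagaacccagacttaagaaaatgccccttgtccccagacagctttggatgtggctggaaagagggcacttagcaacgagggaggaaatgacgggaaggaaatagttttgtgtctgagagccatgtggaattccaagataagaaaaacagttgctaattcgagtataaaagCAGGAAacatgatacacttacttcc
Emcn: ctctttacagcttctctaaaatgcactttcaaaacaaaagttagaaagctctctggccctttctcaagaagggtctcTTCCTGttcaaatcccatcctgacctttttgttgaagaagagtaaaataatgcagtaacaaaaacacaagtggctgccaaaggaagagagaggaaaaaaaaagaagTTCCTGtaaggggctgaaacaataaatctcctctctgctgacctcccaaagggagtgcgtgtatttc
Rasip1: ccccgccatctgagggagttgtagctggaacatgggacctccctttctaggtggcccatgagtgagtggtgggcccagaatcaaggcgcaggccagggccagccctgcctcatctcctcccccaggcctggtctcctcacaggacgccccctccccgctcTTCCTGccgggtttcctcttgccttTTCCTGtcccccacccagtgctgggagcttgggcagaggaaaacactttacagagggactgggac
Esm1: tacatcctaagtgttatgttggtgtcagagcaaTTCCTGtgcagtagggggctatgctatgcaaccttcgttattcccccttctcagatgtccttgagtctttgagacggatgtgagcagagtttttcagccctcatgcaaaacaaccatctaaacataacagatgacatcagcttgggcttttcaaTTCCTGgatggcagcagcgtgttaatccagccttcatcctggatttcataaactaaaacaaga

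CAGGAA, searched on both strands, was in 7 of the 8 windows kept, and in 25.7% of 32851 windows of the same length. At least 1 window of each of these 6 genes held it, Clec14a and Egfl7 included. It was found in the promoters of genes with a higher mean in tumour LEC and in those of Rasip1 and Esm1 alike. Windows on chromosome 18, which carries Ecscr, were left out of the 8 but not of the 32851. The search recorded no match for Ecscr, so an Ecscr window, if there was one, held none of these forms. It would then lower the share of 7 in 8. CCGGAA, another ETS form, was in 0 of the 8 windows and in 12% of all. The Myct1 window also held the GATA form AGATAA (9.99% of all windows) and the TATA-box form TATAAA (12.4%) and the Emcn window the SOX form AACAAT (9.42%). Matches describe the letters only, and Egfl7 has 3 windows since it has several starts.

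Other endothelial genes gave the setting for the 10. Of 32 tested, 0 passed the test, 10 had an unadjusted p under 0.05, all higher in tumour LEC (6.66% of all genes), and 15 differed at least 2-fold in that direction (3.84% of all genes). The groups did not overlap for 12, all higher (20.9% of all genes), and the median difference was 0.86, beside 0.85 for the 10 genes described. Ets1, a transcription factor of endothelium, read 9.72, 9.92 and 9.72 in tumour LEC and 8.82, 8.52 and 8.91 in normal LEC (difference 1.04, SE 0.15, adjusted p = 0.0778). Adgrf5, an adhesion G protein-coupled receptor, read 13.80, 13.40 and 13.64 in tumour LEC and 11.50, 12.30 and 12.56 in normal LEC (difference 1.49, SE 0.30, adjusted p = 0.125).

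Eng, the TGF-beta co-receptor endoglin, differed by 1.70 (SE 0.38) and Cyyr1, a membrane protein, by 0.70 (SE 0.14). Cdh5, the cadherin of endothelial junctions, read 11.52, 11.64 and 11.65 in tumour LEC and 9.62, 10.79 and 11.37 in normal LEC (difference 1.01, SE 0.45). Pecam1 differed by 1.44 (SE 0.69) and Tek, the angiopoietin receptor TIE2, by 0.81 (SE 0.41). Kdr, which encodes VEGF receptor 2, differed by -0.10 (SE 0.28), and Vwf was at background on all 6 arrays. Of these 32 genes, 23 were lowest on normal replicate 1, where fibroblast markers were highest, and without that array their median difference was 0.57.

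**Figure D4:**
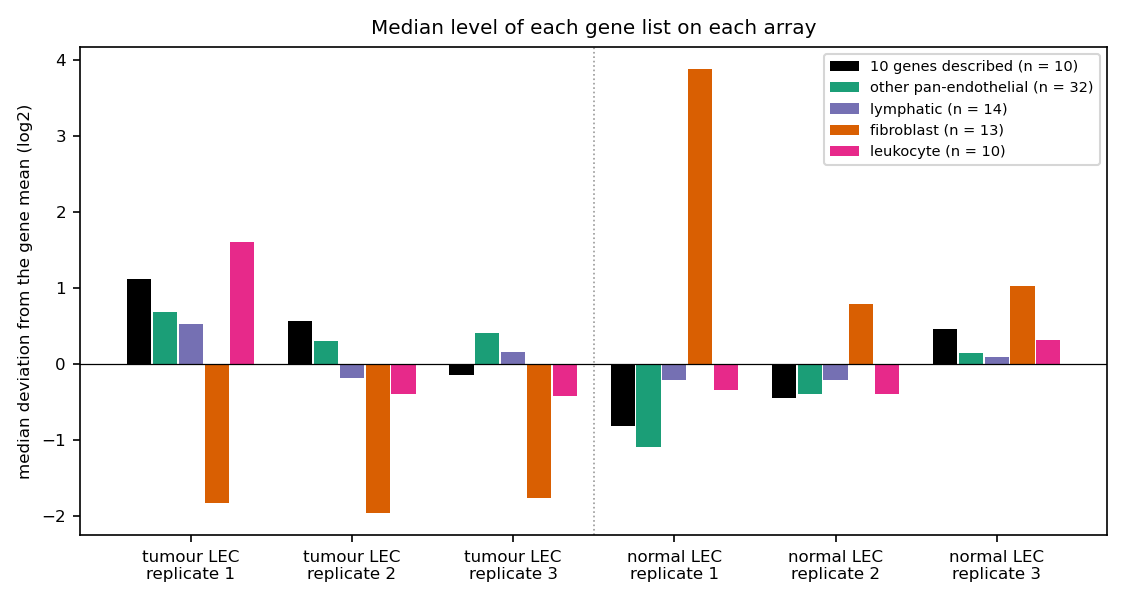
Median deviation from the gene mean (log2 units) on each array for the 10 genes described, 32 other pan-endothelial genes, 14 lymphatic, 13 fibroblast and 10 leukocyte markers. The other pan-endothelial genes are at 0.30 to 0.68 on the tumour arrays and at -1.10 to 0.14 on the normal arrays, whereas the 10 genes overlap between groups, and fibroblast markers stand at 3.87 on normal replicate 1.

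Of the 14 tested lymphatic genes 0 passed the test, and their median difference was 0.33. Foxc2, a transcription factor of lymphatic valves, differed by -1.74 (SE 0.36), and Tbx1, a transcription factor of developing lymphatics, by 1.36 (SE 0.39).

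Markers of other cell types differed between arrays as well. S100a4, a calcium-binding protein of fibroblasts and other motile cells, differed by -3.03 (SE 0.49). The 13 tested fibroblast markers were all lower in tumour LEC, 1 passed the test and the median difference was -3.35. Pdgfra and Pdgfrb encode growth factor receptors of mesenchymal cells. Pdgfra read 5.74, 4.87 and 4.66 in tumour LEC and 11.75, 9.48 and 9.13 in normal LEC, and Pdgfrb read 3.84, 2.48 and 3.37 in tumour LEC and 10.78, 8.34 and 7.87 in normal LEC. Cspg4, the pericyte proteoglycan NG2, read 2.64, 3.01 and 3.06 in tumour LEC, at background, and 8.11, 5.38 and 6.66 in normal LEC. Pericyte and smooth muscle markers (7 tested) had a log2 summed signal of 11.47 to 14.11 on tumour arrays and 12.43 to 14.14 on normal arrays, with Myh11, Des, Rgs5 and Cnn1 at background throughout. Of the 7, 5 had a higher and 2 a lower mean in tumour LEC, 0 passed the test and the median difference was 0.13. Acta2, smooth muscle actin, differed by -1.09 (SE 0.77), whereas Tagln, also bright, differed by 1.31 (SE 0.89). Abcc9, a channel subunit of pericytes, read 4.06, 3.06 and 5.91 in tumour LEC and was at background on all 3 normal arrays. Keratinocyte markers were dim, with Krt14 and Krt1 at background on every array, and Krt10 differed by -0.24 (SE 0.11). Leukocyte markers had a median difference of 0.39 over 10 genes with 0 past the test, and Aif1, Itgam, Cd3e and Cd79a were at background. Cd14, the brightest of them, differed by 0.51 (SE 0.52) and Cd52 was above background on tumour replicate 1 alone. Their part in the values of the 10 genes was not tested.

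By the rule for likeness, the genes outside the 10 with the closest profile to the mean of their centred values were Tnik (r = 0.986), Fcer1g (r = 0.977), Laptm5 (r = 0.976), Adcy4 (r = 0.974) and Txnip (r = 0.972), out of 3460 genes with an SD of at least 0.5 over 6 arrays. Fcer1g is also on the list of leukocyte markers, and read 6.87, 5.95 and 5.15 in tumour LEC and 4.40, 5.09 and 5.89 in normal LEC. Laptm5 read 10.78, 7.70 and 6.34 in tumour LEC and 5.18, 4.58 and 8.12 in normal LEC. With group means subtracted the closest were Exoc3l2 (r = 0.999), Ccl6 (r = 0.995), Txnip (r = 0.994), Gdap10 (r = 0.991) and A430108G06Rik (r = 0.987). Txnip, on both lists, encodes a thioredoxin-binding protein and read 12.05, 11.52 and 11.06 in tumour LEC and 10.31, 10.56 and 11.22 in normal LEC. With 6 arrays and so many candidates such values are a description only. Clec14a, which spread most of the 10 genes, weighs heavily in the mean they were matched to.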

How the data were processed

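The authors deposited one log2 value for each probe set and array. The tools named by the submitters' processing notes are RMA and GCRMA, without version numbers, and it is not given which was applied. Each corrects background, normalizes between arrays and summarises probes, which compresses differences near background. No scanner files were used here, and the labels give no batch or scan date.

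Of 45101 probe sets 34945 had a single gene in GEO's platform annotation, and 932 with several and 9160 with none were not named. Genes above the 40th percentile of mean log2 values (2.71) were tested in limma 3.58.1 under R 4.3.3, by lmFit and eBayes on tumour minus normal, with Benjamini-Hochberg adjustment over 12954 genes and intervals of 95%. Probe sets were fitted separately in the same way. The steps were tested on simulated data. No set test or resampling was run, and precision is limited by having 3 arrays per group.

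The members and gene lists were chosen with earlier results of these data known. The named genes are all 10 members, fixed endothelial, marker and partner genes, those with the smallest p and the brightest of each list, and the genes of most similar profile. Csf1r, Cd68, Lyz2, Tagln, Arhgap29, Rap1a and single markers named at background were chosen after their values were seen. Alternatives were other filters, normalizations, variance models and probe set rules, array weights, a background floor, a replicate block and leaving out each array.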

Additional observations from a re-analysis of the deposited data

How the results depend on the processing

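None of the 10 genes passed the test under any of the 16 alternatives run, and of 156 gene values under them 144 kept their sign and 12 did not. With single arrays left out, Clec14a ranged from -1.21 to 2.42, Cd93 from -0.63 to 1.18, Esm1 from -0.54 to 0.26 and Rasip1 from -0.38 to 0.19. Plvap ranged from 0.73 to 1.75. Rasip1 was 0.054 with quantile normalization. With array weights Rasip1 was -0.79, Esm1 0.29, Cd93 0.86, Clec14a 0.32 and Egfl7 0.16. These weights were 3.72 for tumour replicate 2 and 0.45 and 0.31 for tumour replicates 1 and 3. All results with array weights thus rest mostly on 1 tumour array. The median of the 10 genes ranged from 0.43 to 1.44 and that of the other pan-endothelial genes from 0.57 to 1.09 with 1 array left out. The number of the 10 with groups not overlapping, 2 with all arrays, ranged from 2 to 6 with 1 left out, and was 1 with quantile normalization, median centring, the mean of probe sets, or without _s_, _x_ and _a_ probe sets, a setting that leaves 7 of the 10 genes. The 60th percentile filter leaves 9, without Esm1. The number of all genes past the test, 28, was 10 with no filter on low values, 97 with the 60th percentile filter, 385 with array weights, 54 with the background floor, and 4 to 82 with 1 array left out, which also lowers power. The cause of the other shifts was not tested.

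With the replicate block 46 genes and 0 of the 10 passed. Same-numbered arrays had deviations from their group means that correlated across genes at 0.19, 0.33 and -0.004 for replicates 1, 2 and 3. Tumour replicates 1 and 2 each correlated best with the normal array of the same number, and tumour replicate 3 with normal replicate 2 (0.13). With 3 arrays per group, these values cannot tell whether arrays of the same number were paired. Clec14a in tumour replicate 3 and Esm1 on 3 arrays were at background, where differences have no firm size.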
